A study of Mus musculus with 4 samples.

Results

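The subunits of the respiratory chain and of ATP synthase that are encoded in the nucleus were measured in IgA+ cells of the mouse small intestine. They were taken by gene symbol from the probe sets that name 1 gene: Nduf followed by a, b, c, s or v and a digit for complex I, Uqcr for complex III, Cox4 to Cox8 for complex IV and Atp5 for complex V. This gave 77 of the 18193 genes on the array, 35 of complex I, 8 of complex III, 17 of complex IV and 17 of complex V, covered by 155 probe sets. Symbols decide membership, so Ndufa4 and Ndufa4l2 are counted with complex I although Ndufa4 is now known as a subunit of complex IV. Subunits made from mitochondrial DNA fall outside the symbols and were not analysed here. Ndufs6 and Ndufa11 were measured through probe sets that name several genes, so they are not members.

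The series compares CD11b+ IgA+ cells with CD11b- IgA+ cells, both primary cells from untreated female Balb/c mice aged 9 weeks, labelled WT in the sample titles. CD11b, a chain of an integrin receptor, is a classical surface marker of myeloid cells, and IgA is the antibody class that intestinal plasma cells secrete. Each fraction has 2 Affymetrix 3' expression arrays. The first array of each fraction was labelled from 1 µg of RNA with the One-Cycle kit and the second from 0.1 µg with the 3' IVT Express kit, so that each kit holds both fractions. The labels do not say whether the arrays of a fraction came from separate mice or sorts, so p-values here reflect the scatter among these arrays, part or all of which may be technical. Precision is limited by having 2 arrays per fraction.

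Complex I passes electrons from NADH to ubiquinone, complex III passes them on to cytochrome c, and complex IV hands them to oxygen, while these complexes pump protons out of the mitochondrial matrix. Complex V, the ATP synthase, lets the protons flow back through a rotating ring of c subunits and makes ATP in its F1 head. Plasma cells release large amounts of antibody, a process that consumes ATP. Most subunits of these complexes are present in every nucleated cell type, and a few have isoforms restricted to muscle, lung, testis or cells short of oxygen.

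The fractions showed their sorting marker and their cell type. Itgam, the gene of CD11b, had quantile-normalized signals of 189 and 109 in the CD11b+ arrays, against 28.3 and 15.8 in the CD11b- arrays (One-Cycle first, then 3' IVT Express, here and wherever 2 signals follow each other). The antibody genes Igha and Jchain ranked between 1 and 7 of 45037 probe sets on all 4 arrays. Markers of other cells differed between the fractions. The summed signal of the 21 epithelial markers tested was 4512 and 3259 in CD11b+ arrays, against 8057 and 8258 in CD11b- arrays, and 20 of the 21 were lower in CD11b+ with both kits. That of 11 mitosis genes was 5973 and 4468 in CD11b+, against 3026 and 2038 in CD11b-, and 11 of 11 were higher with both kits. For 9 T and NK cell markers the sums were 2737 and 1389 in CD11b+, against 5517 and 2023 in CD11b- (6 of 9 lower with both kits). For 8 macrophage markers, Itgam among them, they were 776 and 567 in CD11b+, against 447 and 352 in CD11b- (6 of 8 higher with both kits). The defining macrophage markers Csf1r and Adgre1 differed by -0.11 log2 each. The 4 muscle and stroma markers tested summed to 96.2 and 115 in CD11b+, against 90.1 and 126 in CD11b-. No red cell marker passed the filter on low signal with a probe set that names 1 gene. These cell differences lie in the same arrays as every value below, and their part in the subunit values was not tested.

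Of the 77 subunit genes, 74 passed the filter on low signal and were tested: 34 of complex I, 8 of complex III, 15 of complex IV and 17 of complex V. Ndufb4, Cox7b2 and Cox8b did not pass. On each of the 4 arrays, 66 of the 74 lay above the 75th percentile of the genes tested. Subunit levels were close to equal in the fractions. The median log2 difference, CD11b+ minus CD11b-, was 0.064 over the 74 subunits, against 0.0027 over all 12645 genes tested, and the middle of the distribution was narrow: quartiles lay at -0.00022 and 0.14 for subunits and at -0.24 and 0.23 for all genes. In bulk RNA, fewer cells of a type and less RNA per cell cannot be told apart, and this holds for each difference below.

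With limma, a linear model with a spread shared across genes, none of the 74 subunits passed an adjusted p under 0.05 (smallest adjusted p = 0.687), and 0 of all genes tested did (0%). At an unadjusted p under 0.05, 2 subunits, 397 higher genes and 445 lower genes stood. A fit with the kit as a block called 1 subunit higher and 1 lower in CD11b+ cells, out of 472 higher genes (3.73% of those tested) and 524 lower genes (4.14%). The 2 were Atp5md of complex V, higher, and Ndufv3 of complex I, lower. The blocked fit has 1 residual degree of freedom per gene and leans on a spread shared across genes that carries the weight of 25.6 degrees of freedom. Without the trend of that spread with signal, it called 0 subunits.

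A difference as large as 2-fold was outside the interval of most subunits. Without the block, the 95% interval of the difference lay within 2-fold in either direction for 66 of 74 subunits and 5906 of 12645 genes. With the block it did so for 70 of 74 subunits and 8045 of 12645 genes. With the block 65 of 74 subunits and 4096 of 12645 genes lay within 1.5-fold. Among the 1265 genes brightest by mean signal, where 56 of the 74 subunits lie, these counts were 1116, 1227 and 1051 in turn. Narrow intervals were thus common among bright genes and not particular to the subunits. The subunits whose blocked interval reached past 2-fold were the dim Ndufa4l2, Cox4i2, Cox6b2 and Cox7a1.

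**Figure D1:**
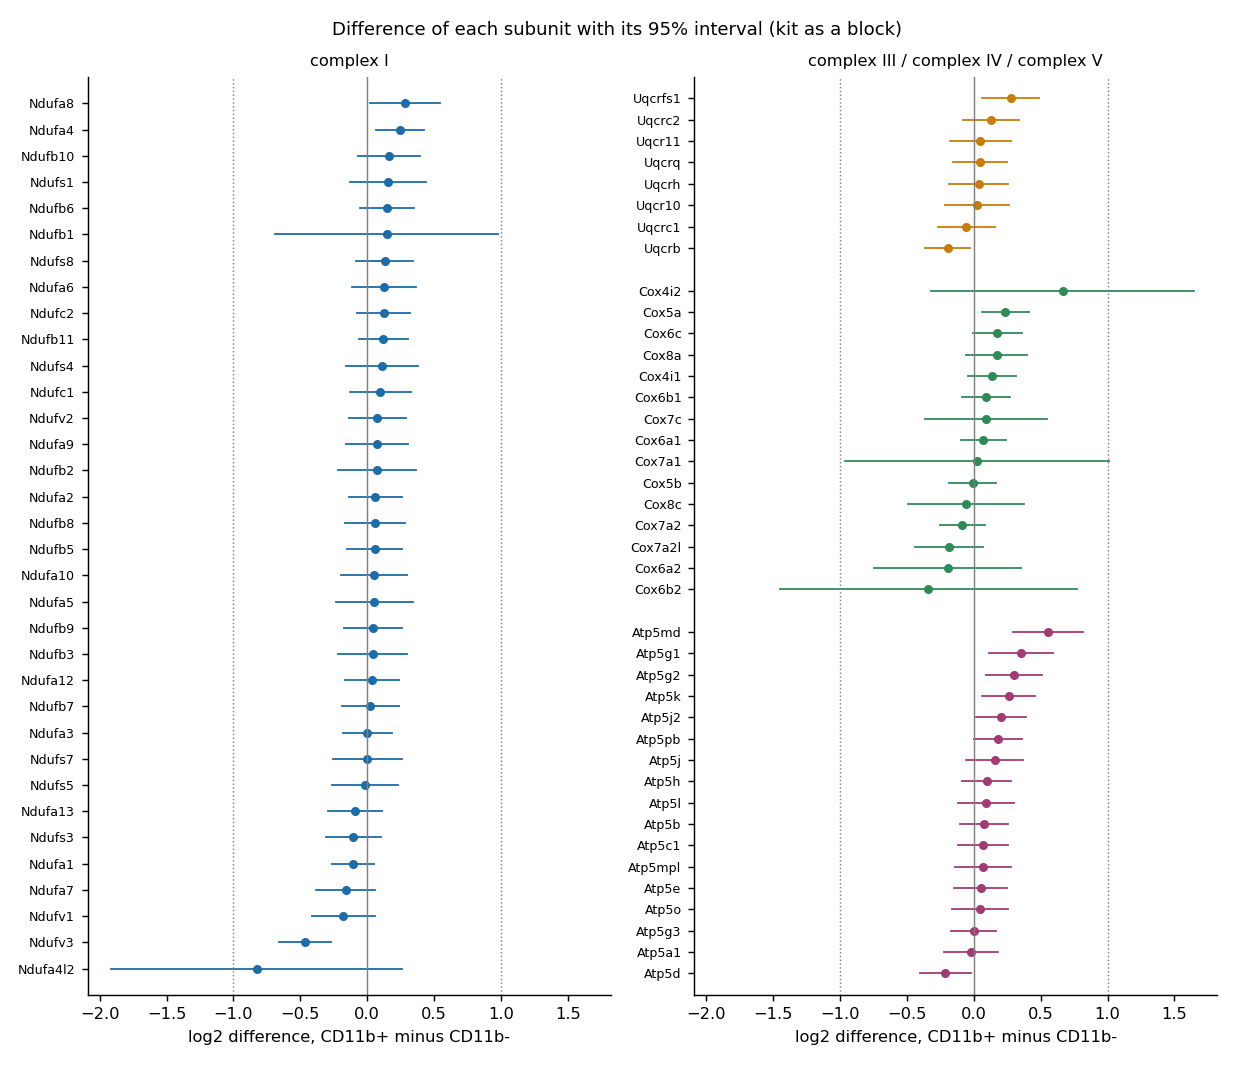
Difference of each of the 74 tested subunits between CD11b+ and CD11b- arrays (x axis, log2; y axis, genes ordered by difference within each complex). Points are the mean of both kits, bars the 95% interval of the fit with the kit as a block, and dotted lines mark 2-fold. The bars are not adjusted for the number of genes. Those of the called Ndufv3 and Atp5md lie clear of 0. So do, without a call, those of Atp5g1, Atp5g2, Atp5k, Atp5j2, Uqcrfs1, Ndufa4, Ndufa8 and Cox5a (higher) and Uqcrb and Atp5d (lower). The widest bars belong to Ndufa4l2, Cox6b2, Cox7a1 and Cox4i2.

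Direction was counted within each kit, which is the only repetition in the design. In CD11b+ cells 37 of 74 subunits (50.0%) were higher with both kits, where 31.6% of all genes were, and 14 (18.9%) were lower with both kits, where 30.5% of all genes were. The other 23 subunits were neither higher nor lower with both kits. Among the 1265 brightest of the genes tested, those above the 90th percentile of mean signal, where 56 of the 74 subunits lie, 38.5% were higher with both kits and 36.2% lower, with a median difference of 0.0084. These counts move with the scaling: relative to all genes, 55 subunits were higher and 8 lower with both kits after centring each array on its median, and with a common trimmed mean these were 51 and 10.

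The differences between the medians of the complexes were smaller than the spread among the subunits of each. With the One-Cycle kit the median difference was 0.0055 for complex I, 0.010 for complex III, 0.024 for complex IV and 0.11 for complex V. With the 3' IVT Express kit it was 0.085, 0.064, 0.098 and 0.10 in the same order, against -0.0090 and 0.014 over all genes. Complex V thus stood 0.10 above complex I with the first kit and 0.016 above it with the second. The standard deviation of the differences over all 74 subunits was 0.28 and 0.18. Within complexes I, III, IV and V it was 0.34, 0.16, 0.28 and 0.20 with the first kit. With the second it was 0.13, 0.13, 0.28 and 0.18. The 0.34 of complex I includes the dim Ndufa4l2 at -1.63. The gaps between complex V and complex IV were 0.084 and 0.0025. Between complexes I, III and IV no gap exceeded 0.034 in size with either kit.

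**Figure D2:**
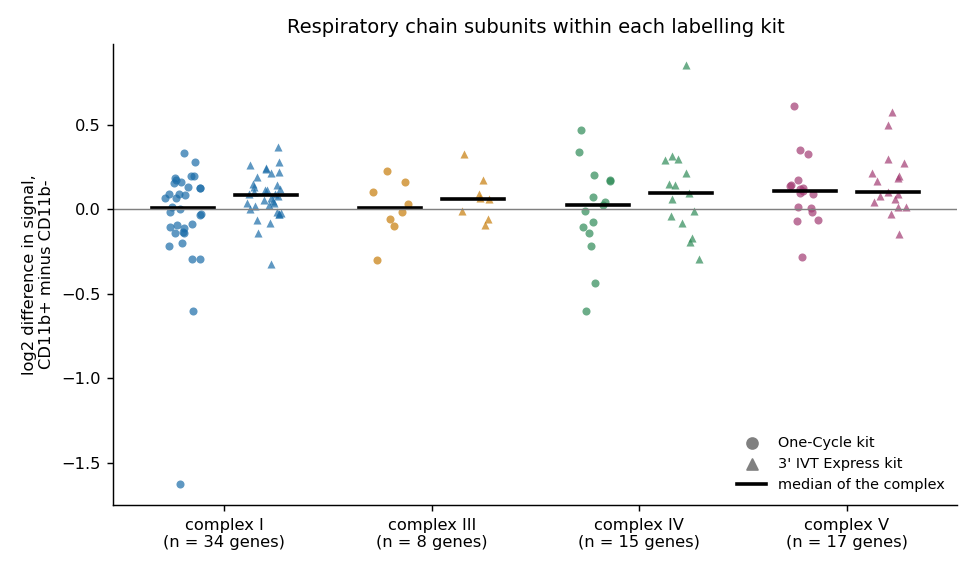
Log2 difference in signal between CD11b+ and CD11b- arrays (y axis) for each subunit within the One-Cycle kit (circles) and the 3' IVT Express kit (triangles), by complex. Black bars are medians; they lie between 0.0055 and 0.11 in all 8 columns, inside the scatter of the single subunits.

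By direction, complex V had 13 of 17 subunits (76.5%) higher in CD11b+ with both kits and 2 lower. Complex I had 15 of 34 (44.1%) higher and 6 lower, complex III 3 of 8 (37.5%) higher and 2 lower, and complex IV 6 of 15 (40%) higher and 4 lower. All of these stand beside the 31.6% and 30.5% over all genes. The share of complex V that was higher was not tested against the other complexes, since subunits share the same 4 arrays.

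Promoter windows are shown for the 2 subunits called with the block, Ndufv3 and Atp5md, and for Atp5g1 and Atp5g2, the next largest differences of complex V. Each is the 250 bases before the annotated start, read 5′ to 3′ on the gene's strand from the RefSeq promoter table (GRCm38.p6), and capitals mark a motif match. Ndufv3 lies on the plus strand at chr17:31519865-31520114, Atp5md on the minus strand at chr19:47090648-47090897, Atp5g1 on the minus strand at chr11:96075632-96075881 and Atp5g2 on the minus strand at chr15:102671048-102671297.
Ndufv3: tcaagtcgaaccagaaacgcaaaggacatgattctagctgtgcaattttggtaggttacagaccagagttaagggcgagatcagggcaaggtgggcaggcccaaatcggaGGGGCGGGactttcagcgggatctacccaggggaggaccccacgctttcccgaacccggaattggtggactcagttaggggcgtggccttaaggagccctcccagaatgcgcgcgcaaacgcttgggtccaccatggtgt
Atp5md: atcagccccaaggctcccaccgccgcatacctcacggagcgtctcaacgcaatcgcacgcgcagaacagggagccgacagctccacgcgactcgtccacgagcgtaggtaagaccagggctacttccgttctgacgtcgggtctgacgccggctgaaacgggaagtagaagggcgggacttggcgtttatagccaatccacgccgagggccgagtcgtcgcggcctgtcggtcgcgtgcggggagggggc
Atp5g1: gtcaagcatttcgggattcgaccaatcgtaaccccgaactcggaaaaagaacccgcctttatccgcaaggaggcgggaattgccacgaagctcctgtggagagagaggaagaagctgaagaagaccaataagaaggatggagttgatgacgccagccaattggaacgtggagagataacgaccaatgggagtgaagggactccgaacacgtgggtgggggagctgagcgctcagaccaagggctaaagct
Atp5g2: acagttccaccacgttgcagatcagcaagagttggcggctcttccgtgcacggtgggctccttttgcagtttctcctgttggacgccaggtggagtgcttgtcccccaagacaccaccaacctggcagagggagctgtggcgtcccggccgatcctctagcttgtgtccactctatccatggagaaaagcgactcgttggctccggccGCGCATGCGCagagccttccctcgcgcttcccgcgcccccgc
The capitals are a GC box in Ndufv3 and, in Atp5g2, an NRF-1 motif that reads on both strands and so gives overlapping matches. The windows of Atp5md and Atp5g1 held none of the 4 motifs searched.

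Of the 77 subunits, 63 matched a promoter window. The motifs searched on both strands were the NRF-1 site GCGCANGCG, the GABP or ETS site CCGGAAGT, the YY1 site AAGATGGCG and the GC box GGGGCGGG. NRF-1 and GABP are transcription factors known as activators of nuclear genes for mitochondrial proteins. The NRF-1 motif stood in 10 of the 63 windows (15.9%), against 5.86% of 27025 genes with a window. By complex it was in 5 of 15 windows of complex V, 4 of 31 of complex I, 1 of 12 of complex IV and 0 of 5 of complex III. The GABP motif stood in 3 windows (4.76%, against 3.23% of all genes), the YY1 motif in 1 (1.59%, against 0.711%) and the GC box in 14 (22.2%, against 16.8%). Subunits with an NRF-1 motif had a median difference of 0.091 (9 tested genes) and those without 0.056 (51 genes). For the GC box the medians were 0.053 with it (13 genes) and 0.071 without (47 genes), and for the GABP motif 0.049 with it (3 genes) and 0.071 without (57 genes). The YY1 motif stood in Atp5j alone, at 0.15, against 0.067 over the 59 tested genes without it. Nrf1, which encodes that factor, had signals of 83.6 and 79.7 in CD11b+ arrays, against 91.8 and 82.6 in CD11b- arrays, a difference of -0.090.

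In complex I, the subunits of the N module bind the flavin and the iron-sulfur clusters that take electrons from NADH. Ndufv1, which holds the flavin, had signals of 516 and 575 in CD11b+ arrays, against 599 and 635 in CD11b- arrays. Its difference was -0.18 (adjusted p = 0.429 with the block in limma), with the CD11b+ array lower in both kits. Ndufs1, the largest iron-sulfur subunit, had 324 and 259 in CD11b+, against 282 and 239 in CD11b-, and a difference of 0.16. Ndufv2 had 949 and 749 in CD11b+, against 865 and 738 in CD11b-, and a difference of 0.077. The arrays of the fractions overlapped for Ndufs1 and Ndufv2, since the kits differed more than the fractions. Other probe sets of Ndufv2 ran up to 0.52.

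The Q module carries electrons to ubiquinone. Ndufs3 had 857 and 1068 in CD11b+ arrays, against 946 and 1116 in CD11b- arrays (difference -0.10). Ndufs7, which binds the last iron-sulfur cluster of the path, had 389 and 369 in CD11b+, against 399 and 360 in CD11b- (difference 0.0011). Ndufs8 had 1774 and 1661 in CD11b+, against 1913 and 1283 in CD11b- (difference 0.13), lower in the One-Cycle pair of arrays and higher in the other pair. The 6 passing probe sets of Ndufs8 ran from -0.88 to 0.35 and the 2 of Ndufs7 from -0.39 to 0.0011. The value of either gene thus depends on the probe set. The -0.88 came from a dim probe set, with 25.2 and 26.3 in CD11b+, against 47.3 and 52.6 in CD11b-. The next lowest of Ndufs8 was at -0.24. None of the 6 core subunits measured was called in either fit.

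Ndufv3, an accessory subunit of the N module, was the complex I gene with the smallest p among those lower in CD11b+ cells. It had signals of 1279 and 1675 in CD11b+ arrays, against 1945 and 2099 in CD11b- arrays, means of 1477 ± 279.8 and 2022 ± 109 (SD, n = 2 each). Both CD11b+ arrays lay below both CD11b- arrays. Its differences of -0.60 (One-Cycle) and -0.33 (3' IVT Express) average to 1.38-fold lower (adjusted p = 0.728 in limma without the block and 0.0018 with it). Leaving out 1 array moved it between -0.66 (without the CD11b+ 3' IVT Express array) and -0.27 (without the CD11b+ One-Cycle array). The blocked call ended without the trend (adjusted p = 0.438). It ended too with the deposited scaling (0.824) and with median centring (0.285), where the test includes the shift of all genes; relative to that shift the difference was -0.35 and -0.36. The gene has 1 passing probe set.

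Among the accessory subunits that were higher with both kits, Ndufa8, which sits on the intermembrane side of the membrane arm, had the largest difference. It had signals of 414 and 392 in CD11b+ arrays, against 328 and 332 in CD11b- arrays, with no overlap, and a difference of 0.29 (adjusted p = 0.203 with the block in limma). Ndufb10 had 616 and 579 in CD11b+, against 545 and 521 in CD11b-, and a difference of 0.16. Ndufb6 had 1192 and 1216 in CD11b+, against 1068 and 1101 in CD11b-, and a difference of 0.15. Both belong to the membrane arm, and for both the CD11b+ arrays lay above the CD11b- arrays, without a call in either fit. Ndufa4, counted here by its symbol, had 1930 and 3413 in CD11b+ arrays, against 1589 and 2944 in CD11b- arrays. Its difference between the fractions was 0.25, smaller than the 0.85 between the arrays of the kits. The remaining tested complex I subunits, apart from Ndufa4l2, ran from -0.16 (Ndufa7) to 0.14 (Ndufb1).

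In complex III, Uqcrc1 and Uqcrc2 are the core proteins that face the matrix, and Uqcrfs1 is the Rieske iron-sulfur protein. Uqcrfs1 had signals of 1007 and 881 in CD11b+ arrays, against 861 and 701 in CD11b- arrays. With both kits the CD11b+ array was the higher one, and the arrays of the fractions did not overlap. The difference was 0.28 (adjusted p = 0.879 in limma, 0.116 with the block), and 0.13 without the CD11b- 3' IVT Express array. Uqcrc2 had 1005 and 935 in CD11b+, against 899.6 and 877 in CD11b-, and a difference of 0.13. Uqcrc1 had 750.0 and 913 in CD11b+, against 781 and 949 in CD11b-, and a difference of -0.056.

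Uqcrb, a small subunit at the ubiquinone site, was the lowest of complex III. It had 4450 and 4892 in CD11b+ arrays, against 5472 and 5224 in CD11b- arrays, without overlap and with a difference of -0.20 (adjusted p = 0.166 with the block in limma). Its second passing probe set was at 0.15, in the other direction. Uqcr11 had 664 and 616 in CD11b+, against 649 and 589 in CD11b-, and a difference of 0.049. The remaining subunits of complex III, Uqcr10, Uqcrh and Uqcrq, were at 0.026, 0.037 and 0.047. The second passing probe set of Uqcr10 was at -0.28 and that of Uqcrh at 0.43. No complex III gene was called in either fit.

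In complex IV, Cox4i1, Cox5a and Cox5b are subunits encoded in the nucleus. Cox5a had signals of 3063 and 3348 in CD11b+ arrays, against 2721 and 2721 in CD11b- arrays. The 2 CD11b- values are equal because quantile normalization gave the gene the same rank on both arrays. All 3 passing probe sets of Cox5a were higher in CD11b+, from 0.23 to 0.32 (adjusted p = 0.0996 with the block in limma for the brightest). Cox4i1 had 2703 and 2592 in CD11b+, against 2394 and 2420 in CD11b-, without overlap, and a difference of 0.14. Cox5b had 2710 and 2747 in CD11b+, against 2727 and 2769 in CD11b-, and a difference of -0.010. This was the lowest of its 5 passing probe sets, which ran up to 0.18. The next brightest had 2613 and 2527 in CD11b+, against 2359 and 2359 in CD11b- (0.12).

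Of the other subunits of complex IV, Cox6c had 2153 and 2244 in CD11b+ arrays, against 1872 and 2024 in CD11b- arrays. Its difference was 0.18, with no overlap (adjusted p = 0.286 with the block in limma). Cox7a2 had 3880 and 3818 in CD11b+, against 4269 and 3922 in CD11b-, and a difference of -0.088. Cox7a2l, related to Cox7a2 and known to join complexes III and IV into supercomplexes, had 510.1 and 503 in CD11b+, against 691 and 482 in CD11b-. One-Cycle arrays gave a difference of -0.44 and 3' IVT Express arrays 0.062, so the lower mean rests on 1 kit. Its other passing probe sets were higher with both kits, at 0.201 and 0.051. Cox6a1, Cox6b1, Cox7c and Cox8a ran from 0.071 to 0.17.

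Isoforms of restricted tissues covered dim and moderate signals. Cox4i2, the lung isoform of Cox4, had 15.3 and 29.5 in CD11b+ arrays, against 10.2 and 15.0 in CD11b- arrays, and a difference of 0.66 with a blocked interval of -0.32 to 1.64. Ndufa4l2, a hypoxia-induced relative of Ndufa4, had 4.56 and 19.8 in CD11b+, against 20.4 and 20.2 in CD11b-. Only the CD11b+ One-Cycle array was low, and the difference of -0.83 was -0.031 without it. Cox6b2 and Cox8c, known from testis, differed by -0.34 and -0.058, with Cox6b2 signals of 7.47 and 15.7 in CD11b+, against 12.9 and 16.8 in CD11b-. Cox8c had 108 and 69.1 in CD11b+, against 102 and 79.3 in CD11b-. Among the muscle isoforms, Cox7a1 had 17.4 and 15.5 in CD11b+, against 13.2 and 19.7 in CD11b-. Cox6a2 had 73.9 and 31.5 in CD11b+, against 86.4 and 35.9 in CD11b-, a difference of -0.19 between the fractions and of -1.18 between the kits. The muscle isoform Cox8b had at most 1.66 and the testis isoform Cox7b2 at most 9.85 on any array, and neither passed the filter. Of the 6 tested isoforms 1 was higher and 3 were lower with both kits, and none was called.

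In complex V, the F1 head is built from the subunits alpha, beta, gamma, delta and epsilon. The catalytic beta subunit, Atp5b, had signals of 2808 and 2460 in CD11b+ arrays, against 2544 and 2441 in CD11b- arrays (difference 0.077). Atp5a1, the alpha subunit, had 1311 and 1134 in CD11b+, against 1324 and 1158 in CD11b- (difference -0.022). For both genes the fractions overlapped. Another passing probe set of Atp5a1 had 1462 and 1214 in CD11b+, against 1129 and 1092 in CD11b-, higher with both kits (difference 0.26).

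The subunits of the central stalk below the head were mixed. Atp5c1, gamma, had 1603 and 1966 in CD11b+, against 1473 and 1949 in CD11b- (difference 0.067), and its second passing probe set was at 0.73. Atp5e, epsilon, had 1144 and 1549 in CD11b+, against 1136 and 1453 in CD11b- (difference 0.051). Atp5d, delta, was the lowest of complex V, with 1764 and 1637 in CD11b+, against 2145 and 1810 in CD11b-. Its difference was -0.21 (adjusted p = 0.181 with the block in limma) and its second passing probe set stood at 0.13. None of the 5 was called.

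The c ring is encoded by Atp5g1, Atp5g2 and Atp5g3, whose mature proteins are the same. Atp5g1 had signals of 709.7 and 871 in CD11b+ arrays, against 651 and 582 in CD11b- arrays, and Atp5g2 had 1113 and 1044 in CD11b+, against 886 and 862 in CD11b-. In both genes both CD11b+ arrays lay above both CD11b- arrays. The differences were 0.35 for Atp5g1 (0.12 with One-Cycle, 0.58 with 3' IVT Express, adjusted p = 0.065 with the block in limma) and 0.30 for Atp5g2 (0.33 and 0.28, adjusted p = 0.068 with the block). Atp5g3 had 4508 and 3788 in CD11b+, against 4708 and 3630 in CD11b-, and a difference of -0.00067 with a blocked interval of -0.17 to 0.17. Of the 3 c ring genes 2 were thus higher with both kits and the third split between the kits. Whether their probe sets detect each other's RNA was not tested.

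Atp5md, a small membrane subunit also known as DAPIT, had the largest difference of complex V. It had signals of 415 and 453 in CD11b+ arrays, against 271 and 319.5 in CD11b- arrays, means of 434 ± 27.4 and 295 ± 34.6 (SD, n = 2 each). Both CD11b+ arrays lay above both CD11b- arrays. Its differences of 0.61 (One-Cycle) and 0.501 (3' IVT Express) average to 1.47-fold higher (adjusted p = 0.687 in limma without the block and 0.0056 with it). Leaving out 1 array moved it between 0.44 and 0.67. The blocked call ended without the trend (adjusted p = 0.379) and held under the other alternatives with a value. The gene has 1 passing probe set.

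The other membrane and stalk subunits of complex V were higher with both kits except Atp5mpl, whose kits split. Atp5k, subunit e, had 1584 and 1512 in CD11b+ arrays, against 1241 and 1346 in CD11b- arrays, without overlap and with a difference of 0.26. Its passing probe sets ran from -0.17 to 0.26. Atp5j2, subunit f, was at 0.202 and Atp5l, subunit g, at 0.091, with Atp5mpl at 0.066. The peripheral stalk, which holds the head still, had 4 of 4 genes higher with both kits: Atp5pb at 0.18, Atp5j at 0.15, Atp5h at 0.095 and Atp5o at 0.045. No peripheral stalk gene was called in either fit.

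**Figure D3:**
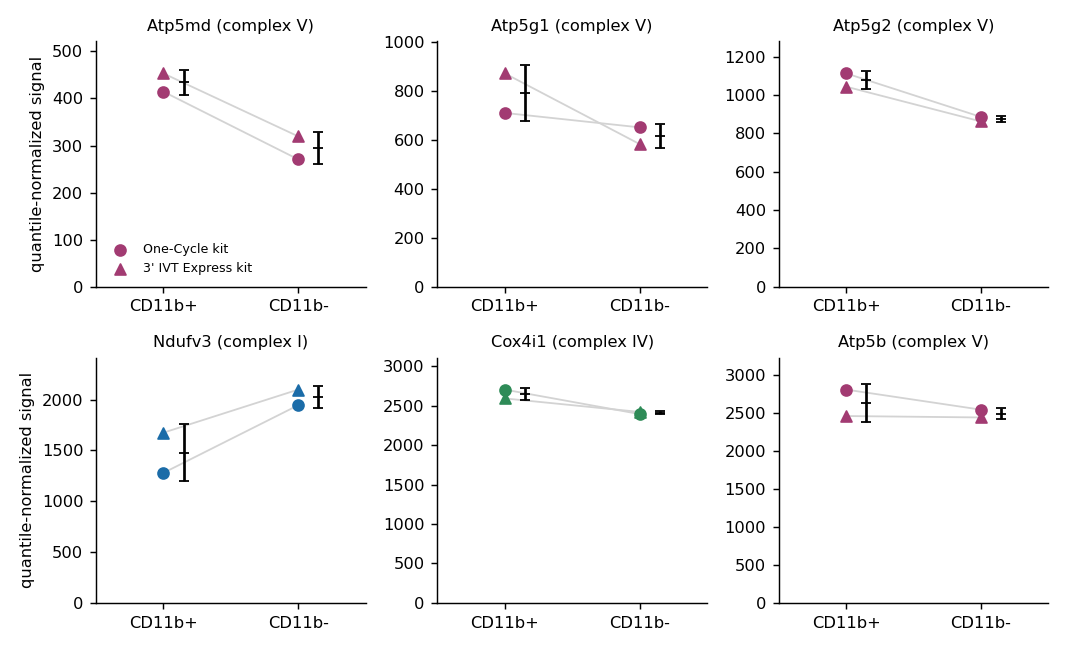
Quantile-normalized signal (y axis, linear, from 0) of 6 subunits on each CD11b+ and CD11b- array, with circles for the One-Cycle and triangles for the 3' IVT Express kit, grey lines joining arrays of 1 kit and black bars showing mean ± SD (n = 2). CD11b+ lies above CD11b- with both kits in Atp5md, Atp5g1, Atp5g2, Cox4i1 and Atp5b and below in Ndufv3, and the arrays of the fractions overlap in Atp5b.

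Subunits differed more between the arrays of the 2 kits than between the fractions. Kit, amount of RNA and replicate number change together, so their parts cannot be told apart. The median size of the kit difference was 0.17 over the 74 subunits and that of the fraction difference 0.097, where all genes gave 0.29 and 0.24. Each kit holds 1 array of each fraction, so a kit difference shared by the fractions cancels in their mean difference. Ndufa4 (0.85) and Cox4i2 (0.63) were higher with the 3' IVT Express kit and Cox6a2 (-1.18) with the One-Cycle kit, in both fractions. The mean kit difference of Ndufa4l2 (0.79) came from 1.59 in CD11b+ arrays, where the One-Cycle array was low, and -0.011 in CD11b- arrays. The differences of the fractions within the 2 kits correlated across the 74 subunits with a Pearson r of 0.402, and across all genes with 0.275. The subunits are not independent replicates and share the arrays, so this is a description. Complex V had r = 0.632 over 17 genes and complex I had r = 0.335 over 34.

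**Figure D4:**
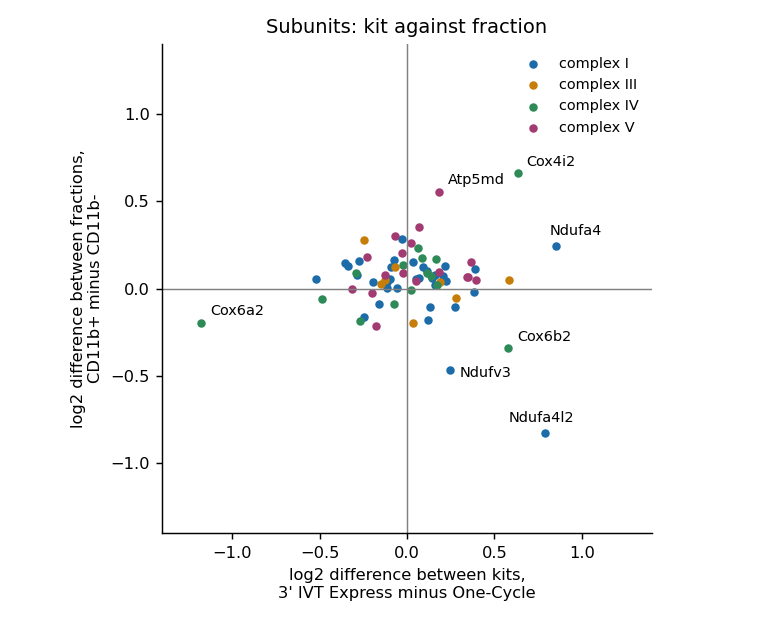
Difference between the kits (x axis, log2, 3' IVT Express minus One-Cycle) and between the fractions (y axis, log2, CD11b+ minus CD11b-) for each of the 74 tested subunits, coloured by complex, on equal scales. Most points lie near the origin. Cox6a2, Ndufa4 and Ndufa4l2 lie farthest out along the kit axis, and Ndufa4l2 (-0.83), Cox4i2 (0.66), Atp5md (0.56) and Ndufv3 (-0.46) along the fraction axis.

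Genes of related mitochondrial functions were counted in the same way. Complex II, succinate dehydrogenase with its assembly factors, had a median difference of 0.052 over 8 genes, 1 higher and 2 lower with both kits. Its Sdhd, a membrane anchor, had 343 and 413 in CD11b+ arrays, against 248 and 312 in CD11b- arrays (1.35-fold higher, adjusted p = 0.042 with the block in limma), and Sdha was at -0.17. Among 11 genes of the electron carriers, cytochrome c and ubiquinone synthesis, 4 were higher and 3 lower with both kits. Their median was 0.23 for the mean of both kits, but 0.19 within the One-Cycle kit and -0.0022 within the 3' IVT Express kit. Cycs, somatic cytochrome c, had 2743 and 2590 in CD11b+, against 2066 and 1938 in CD11b-, 1.33-fold higher with 0.41 and 0.42 within the kits (adjusted p = 0.650 in limma and 0.0025 with the block). The ubiquinone genes Coq8a and Coq9 were at -0.44 and -0.301. With the block 1 gene of each of these lists was called, against 3.73% of all genes.

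Assembly factors of complex I had a median of 0.0025 over 15 genes (5 higher and 3 lower with both kits), of complex III -0.099 over 5 (1 and 2), of complex IV 0.043 over 20 (10 and 6) and of complex V 0.040 over 4 (2 and 2). The block called 2 of these higher, both among the 20 for complex IV, and called 3.73% of all genes higher. Coa7 had 72.4 and 87.3 in CD11b+, against 41.0 and 48.4 in CD11b- (1.73-fold higher, adjusted p = 0.0499 with the block in limma). Cmc1 had 137 and 194 in CD11b+, against 84.6 and 119.7 in CD11b- (1.602-fold higher, adjusted p = 0.017). The 76 genes of the mitochondrial ribosome, which translates the subunits encoded in mitochondrial DNA, had a median of 0.11. Of these 38 (50.0%) were higher and 16 lower with both kits, the same share higher as among the respiratory subunits. With the block 2 of the 76 were called higher, against 3.73% of all genes. These were Mrpl18 (1.72-fold) and Mrpl35 (1.66-fold), with adjusted p = 0.0035 each in limma. The 15 regulators of mitochondrial biogenesis had a median of -0.068, with 5 higher and 8 lower with both kits and 0 called. Ppargc1b, a coactivator of these genes, was at -0.57 and Gabpb1, a GABP subunit, at 0.51.

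The 8 plasma cell markers tested had a median of -0.082, and 7 (87.5%) were lower with both kits, where 30.5% of all genes were. Sdc1, the surface proteoglycan CD138, had 3472 and 4155 in CD11b+ arrays, against 5625 and 5941 in CD11b- arrays. It was 1.52-fold lower (adjusted p = 0.546 in limma without the block and 9.0e-06 with it). The medians of the mitosis genes (1.09) and of the epithelial markers (-1.22) were larger in size than the median of any of the 4 complexes.

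**Figure D5:**
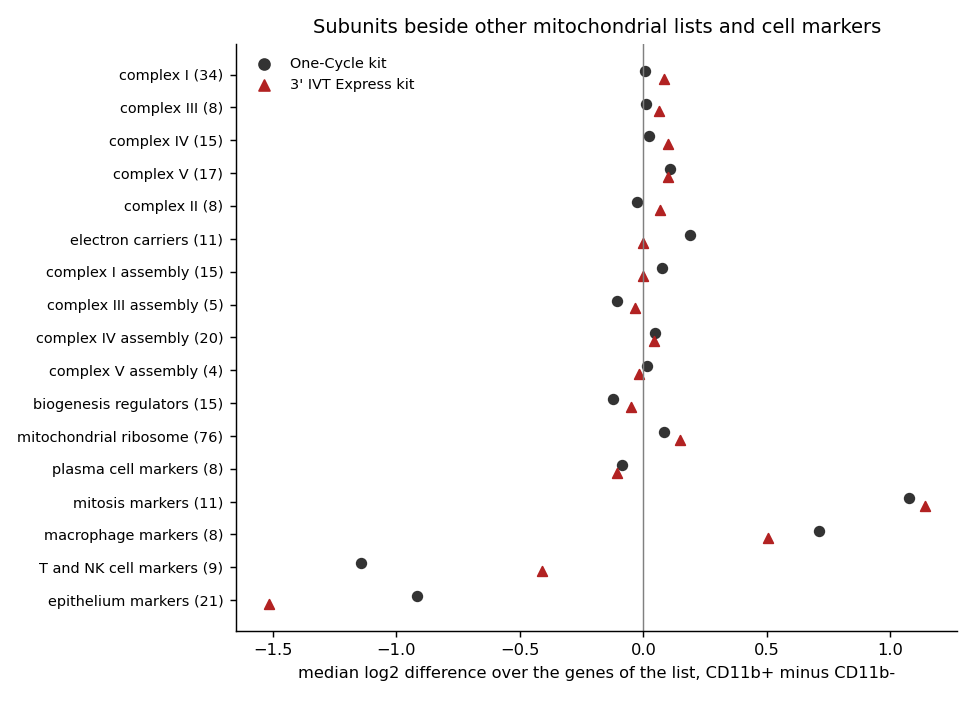
Median log2 difference (x axis, CD11b+ minus CD11b-) over the genes of each list within the One-Cycle (circles) and 3' IVT Express kit (triangles), with the number of genes tested in brackets. The 4 complexes and the other mitochondrial lists lie between -0.12 (biogenesis regulators, One-Cycle) and 0.19 (electron carriers, One-Cycle). Mitosis, macrophage, T and NK cell and epithelial markers lie farther out.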

How the data were processed

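The deposited table holds the authors' intensity values, linear MAS5 signals of each probe set. The submitters' processing notes name MAS5 and Affymetrix Expression Console. Software versions, the scaling target and a genome build are not stated in the labels. Deposited 2% trimmed means were 73.8 and 90.3 in CD11b+ arrays and 48.6 and 70.05 in CD11b- arrays, so signals were quantile-normalized over 45037 probe sets (64 controls left out). A pseudocount of 3 was added before log2, so fold changes of dim genes are understated. Probe sets above the 40th percentile of mean log2 (a signal of 9.51) were kept, with the brightest per gene among those naming 1 gene, and 12645 genes were tested.

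Genes were tested 2-sided with limma 3.58.1 under R 4.3.3, using lmFit, a trended eBayes and Benjamini-Hochberg adjustment over all of them. The main fit had no block, and a fit with the labelling kit as a block stands beside it. On simulated data the mean size and the sign of known changes were checked, and false calls were not held to a limit. The replicate numbers follow the kits. Pairing was checked by correlating deviations from the fraction means of arrays that share a kit (r = 0.387). With 2 arrays in each fraction an exact permutation p cannot be smaller than 0.333, so none is printed.

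The members and gene lists were chosen with earlier results of these data known. The genes named are the core subunits, the restricted isoforms, and the 3 members of each complex with the smallest p in each direction. Others are given where a list or range is described. Complexes are compared by medians and counts, without a test. Promoter sequences come from RefSeq (GRCm38.p6). Alternatives were other pseudocounts, scalings, filters, probe set rules, the block, no trend and leaving out each array.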

Additional observations from a re-analysis of the deposited data

How the results depend on the processing

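With the replicate block of the labelling kit 996 genes were called, against 0 without it, and 0 to 24 on leaving out 1 array; the block left each complex median and each gene's difference as it was. With the block 2 subunits were called, and 58 on the signals as deposited, 46 after median centring, 5 with a common trimmed mean, 1 without probe sets whose names end in _x_at, _s_at or _a_at and 0 without the trend. The calls of the first 2 scalings include the shift of all genes, whose median log2 difference was 0.42 and 0.21 there, and 0.55 and 0.33 in the 1265 brightest genes, against 0.61 and 0.39 for the subunits. Relative to all genes, the medians of complexes I, III and V were 0.19, 0.19 and 0.23 on the signals as deposited and 0.18, 0.18 and 0.22 after median centring. With a common trimmed mean the medians of complexes I, III, IV and V were 0.12, 0.12, 0.014 and 0.17. Cyclic loess gave -0.0080 for complex IV and 0.098 for complex V, and leaving out the probe sets with these endings, after which 56 subunits were tested, gave 0.12 and 0.15. Subunits lower with both kits numbered 8 in each of the deposited scaling, median centring and the set without these endings. The first 2 endings mark possible cross-hybridisation to other genes and _a_at marks several transcripts of 1 gene; Ndufv3, whose probe set ends in _a_at, was not tested there. On leaving out 1 array, medians ranged from -0.0017 to 0.080 for complex I, from -0.023 to 0.079 for complex III, from 0.048 to 0.12 for complex IV and from 0.079 to 0.21 for complex V. The lowest values of complexes I and III came without the CD11b+ 3' IVT Express array, and the highest of complex V without the CD11b+ One-Cycle array. Other alternatives moved no complex median by more than the standard deviation between the kits. Blocked fits and counts over both kits need all 4 arrays, so they were not run on 3.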

Other observations

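Some subunits were also measured by probe sets that name several genes. The probe set of Ndufs6 and Ndufs6b had signals of 650.4 and 679 in CD11b+ arrays, against 725 and 744 in CD11b- arrays, a difference of -0.14. The brighter probe set of Ndufa11 and Ndufa11b had 357 and 464 in CD11b+, against 344 and 427 in CD11b- (0.085). The probe sets that share Ndufb4 with Ndufb4b and Ndufb4c had 394 and 459, and 408 and 456, in CD11b+ arrays, against 448 and 455, and 356 and 474, in CD11b- arrays, with differences of -0.084 and 0.068. Which copy gives the signal cannot be told apart.

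Of the 41 subunit genes with several passing probe sets, 26 had them all on one side of 0 and 15 did not. The median spread between probe sets of a gene, highest minus lowest, was 0.24 log2. The median size of the fraction difference over the 74 subunits was 0.097. Uqcrq had the widest spread, from -1.56 to 0.047. Its lowest probe set was dim, with 15.7 and 0.892 in CD11b+, against 24.2 and 20.2 in CD11b-. Over all 141 passing subunit probe sets, 72 were higher and 25 lower with both kits.

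The limits are the number of arrays, the unstated source of the replicates and the differences in marker genes between the fractions. These were markers of plasma cells, epithelium, T and NK cells, macrophages and mitosis. Small differences of bright genes shift with the scaling by as much as their own size.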
